A study of Arabidopsis thaliana with 18 samples.

Results

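Gene and intron levels were compared between gemin2 mutant and wild type (WT) Arabidopsis thaliana after the plants had spent 1 h at 10 °C. The members are the 6 libraries that the labels place in this condition, 3 of gemin2 and 3 of WT, out of 18 libraries in the series. The gemin2 plants carry the allele that the file headers name gemin2-1, and the WT plants are of the Col ecotype. All plants grew on Murashige and Skoog medium under continuous white light at 22 °C, and the 1 h at 10 °C fell on day 9, when whole plants were harvested. Both groups therefore shared the cold exposure, and libraries of gemin2 and WT kept at 22 °C, 3 of each, serve as the background against which it is set. The mutant is represented by a single allele, and each library holds RNA of the whole plant, so fewer cells of a type and less RNA per cell cannot be told apart. Poly(A) RNA was sequenced, and reads were counted over 33602 genes, 120717 introns and 7973 alternative splicing bins, which are stretches of a gene that some of its transcripts keep and others lack. The labels number the replicates 1 to 3 while the tables letter them A to C, so values are given in the order A, B, C. Nothing in the labels says whether the libraries of a group came from separate cultures, so the p-values measure the spread between these libraries.

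GEMIN2 is a subunit of the SMN complex, which loads a ring of Sm proteins onto the small nuclear RNAs (snRNAs) of the spliceosome. The resulting particles, the U1, U2, U4 and U5 snRNPs, join the U6 snRNP to recognise the 5′ and 3′ ends of introns and to catalyse their removal. In plants, transcripts of circadian clock genes and of cold-responsive genes are among those spliced in more than one way, and clock genes also set the level of many cold-regulated genes.

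GEMIN2 itself had 2.90, 2.88 and 3.16 CPM in the gemin2 libraries, against 10.9, 10.5 and 11.9 CPM in the WT libraries (CPM, counts scaled to library size). The 3 gemin2 libraries lay far below the 3 WT libraries (log2 change -1.90 ± 0.12, adjusted p = 1.27e-09, edgeR's quasi-likelihood test, here and below with Benjamini-Hochberg adjustment over all features of its kind, ± 1 SE). The difference at 22 °C was of the same size (-1.81 ± 0.12). The total gene count ran from 32777883 to 53766089 in the gemin2 libraries and from 24487238 to 38769410 in the WT libraries. At 22 °C it ran from 28154655 to 33098155 in gemin2 and from 15675913 to 20470103 in WT. Those WT libraries were shallower, so counts of calls at 22 °C and after 1 h are not on an equal footing. After 1 h, ribosomal RNA genes took 2.08% to 2.57% of the counts in gemin2 and 1.77% to 2.21% in WT. At 22 °C they took 1.31%, 4.06% and 22.5% in gemin2 and 1.02%, 0.367% and 0.890% in WT, so gemin2 library C stood out there. Among the libraries after 1 h, library A of gemin2 stood apart from its group: its counts differed from those of libraries B and C with a chi-square of 69.9 and 55.2 per gene, against 7.79 between B and C and 7.58 to 18.4 among the WT libraries. That measure grows with depth, and library A is the deepest. The median absolute log2 difference, which is less tied to depth, was 0.186 and 0.163 for the pairs with library A, 0.115 between B and C and 0.124 to 0.140 among the WT libraries. Counts that rest on it are therefore also given without it. Of 21918 genes tested, 3637 (16.6%) were higher and 3823 (17.4%) were lower in gemin2, so 34% passed the test in either direction, and the libraries of the groups did not overlap for 47.8%. Without gemin2 library A, 3744 genes were higher and 4274 lower, and without gemin2 library C 2514 were lower. The median log2 change over all tested genes was 0.0044.

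Introns were read at a higher level in gemin2. Per 100 counts of the genes that hold them, all introns together had 2.96, 3.19 and 3.01 counts in the gemin2 libraries, against 2.52, 2.53 and 2.67 in the WT libraries. The lowest gemin2 library was above the highest WT library, and the difference of the means was 0.481 (two-sided exact permutation test p = 0.1, the smallest p that 3 against 3 libraries allow). At 22 °C the same ratio was 2.57 ± 0.0499 in gemin2 and 2.44 ± 0.0312 in WT (SD, n = 3 each). Introns of up to 100 bp had 1.28, 1.37 and 1.31 counts in gemin2 and 1.07, 1.08 and 1.09 in WT. Those of over 100 to 300 bp had 1.08, 1.18 and 1.11 in gemin2 and 0.889, 0.921 and 0.963 in WT. Introns over 300 bp had 2.45, 2.50 and 2.36 in gemin2 and 2.18, 2.12 and 2.33 in WT. The groups did not overlap in any of the 3 length classes, and the gap was narrowest for the longest introns.

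Of 9366 introns tested relative to the count of the gene that holds them, 1135 (12.1%) were higher and 158 (1.69%) were lower in gemin2, and the libraries of the groups did not overlap for 31.5%. The median log2 change was 0.24, and 68.1% of the tested introns lay above 0. At 22 °C, where the WT libraries were shallower, 380 (4.06%) were higher and 92 (0.982%) were lower, with a median of 0.09. The counts after 1 h were 1176 higher and 240 lower without gemin2 library A. The count of lower introns was 71 to 94 without gemin2 library B or C or WT library A or B, in the order 76, 71, 94 and 78.

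**Figure D1:**
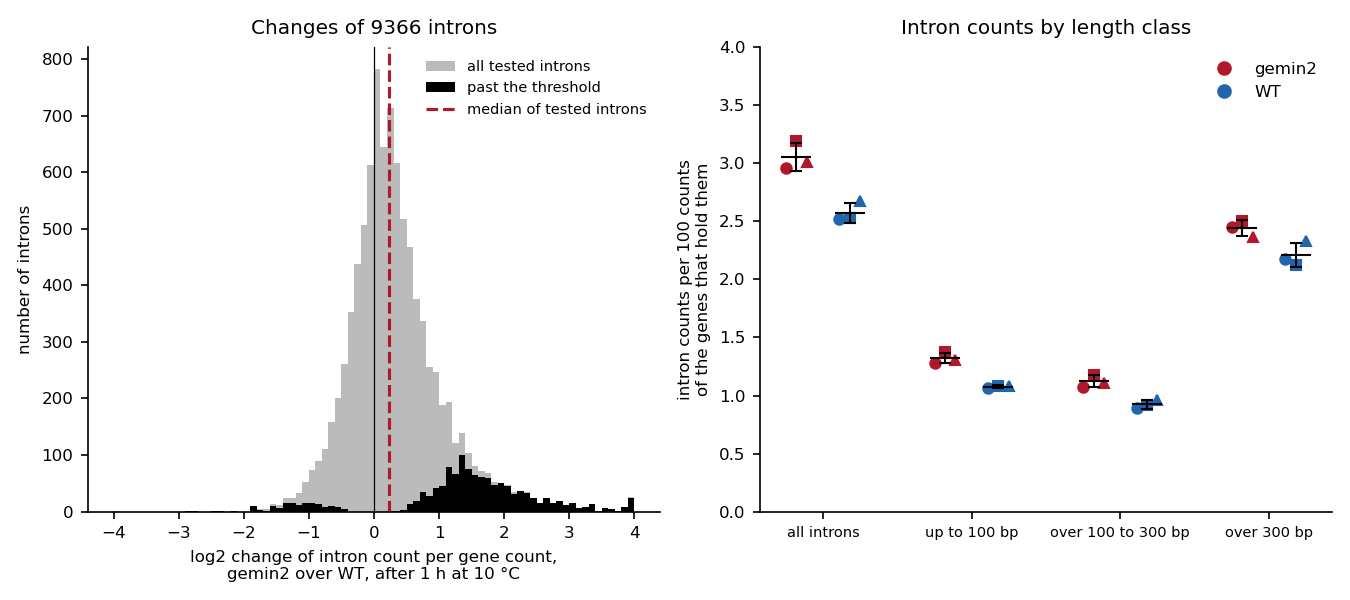
Left, distribution of the log2 change (gemin2 over WT, after 1 h at 10 °C) of 9366 introns relative to their gene, with introns past the threshold in black and the median of 0.24 dashed (values beyond 4 are drawn at 4). Right, intron counts per 100 gene counts by intron length for the 3 libraries of each group (circle A, square B, triangle C), with mean and SD as bars: gemin2 lies above WT in every class.

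First introns were called higher most often among the positions: 332 of 1875 (17.7%), with a median log2 change of 0.36. Of middle introns 487 of 4791 (10.2%, median 0.23) were higher, of last introns 220 of 1970 (11.2%, median 0.15), and of the introns of genes with 1 intron 96 of 730 (13.2%). By length, 12.1% of introns of up to 100 bp, 9.52% of over 100 to 300 bp and 15.3% over 300 bp were higher. These shares describe the tested introns, and their differences were not tested. The match of the donor, meaning the last 3 exon bases and first 6 intron bases, to the 9 letters CAGGTAAGT was almost the same in all classes, at 5.91 ± 1.09 letters in introns that were higher and 5.89 ± 1.13 in those that did not pass (SD over introns). A G at the fifth intron base stood in 54.0% of the introns that were higher, against 46.8% of those that did not pass. Introns that begin with ATATCCTT or GTATCCTT, the start typical of introns removed by the minor spliceosome, made up 0.198% of all introns when read on the gene's strand. Of 35 tested ones, 1 was higher and 1 was lower.

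Of 2034 genes with at least 2 tested introns, 557 had at least 1 intron that was higher, in 37 every tested intron was higher, and 22 held introns of both directions. The genes with the most were ORG1 (AT5G53450), where 6 of 8 tested introns were higher, TAP38 (AT4G27800), the phosphatase that dephosphorylates light-harvesting proteins, with 5 of 5, and GC5 (AT1G79830), which encodes a golgin, with 4 of 4. Of 981 genes with an intron that was higher, 328 (33.4%) were lower and 177 (18.04%) were higher as genes, against 25.2% lower and 18.4% higher over all genes with a tested intron. Introns were tested relative to the count of the same gene, so a fall of the gene alone raises the intron's value. The intron and gene calls are therefore not independent, and what these shares owe to the common count was not tested.

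The short introns below were chosen because each carries a change described here and the annotation places no exon in it. The sequence is the RefSeq TAIR10.1 genome on the gene's strand, 5′ to 3′, and capitals mark the first 6 bases and the closing AG of the intron. The introns keep the numbers of the deposited table, which run with the coordinates and not with the direction of the gene.
XCT intron I010, chr2:9067620-9067712, plus strand: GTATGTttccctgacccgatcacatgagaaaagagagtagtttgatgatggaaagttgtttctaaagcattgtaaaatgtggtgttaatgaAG
PIF7 intron I001, chr5:24638996-24639080, minus strand: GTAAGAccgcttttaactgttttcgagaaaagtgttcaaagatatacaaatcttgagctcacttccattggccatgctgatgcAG
TOC1 intron I004, chr5:24676740-24676823, plus strand: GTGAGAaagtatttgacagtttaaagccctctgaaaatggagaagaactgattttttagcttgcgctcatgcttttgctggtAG
PRR5 intron I001, chr5:8356297-8356380, minus strand: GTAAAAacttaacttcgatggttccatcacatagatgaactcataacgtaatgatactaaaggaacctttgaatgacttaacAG
COR28 intron I002, chr4:16283083-16283165, minus strand: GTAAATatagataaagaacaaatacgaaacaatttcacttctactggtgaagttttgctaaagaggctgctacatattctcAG
AT5G24650 intron I005, chr5:8438729-8438819, plus strand: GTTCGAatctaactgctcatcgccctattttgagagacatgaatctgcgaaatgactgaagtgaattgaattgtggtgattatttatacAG
SR30 intron I010, chr1:2945303-2945381, minus strand: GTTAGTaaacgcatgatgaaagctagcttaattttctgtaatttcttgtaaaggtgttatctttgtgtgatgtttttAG
The PIF7 and COR28 donors match CAGGTAAGT in 8 of 9 letters, those of XCT and SR30 in 7, those of TOC1 and PRR5 in 6 and that of AT5G24650 in 5.

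XCT (AT2G21150) encodes a nuclear protein that acts on the clock and associates with the spliceosome. The count of its intron I010 was equal to 3.30%, 4.49% and 4.93% in the gemin2 libraries, against 0.203%, 0.474% and 0.120% in the WT libraries (percent of the gene's count, as for all regions below). The groups were wide apart (log2 change 3.88 ± 0.47, adjusted p = 4.75e-07, and 4.69 without WT library B) while the gene itself was lower (log2 change -0.56). PIF7 (AT5G61270), a phytochrome-interacting factor that represses CBF genes, had 2.76%, 3.90% and 4.86% in the gemin2 libraries, against 0%, 0.400% and 0.245% in the WT libraries for its intron I001 (log2 change 3.88 ± 0.51, adjusted p = 2.37e-06). WT library A had no count in this intron, and without WT library B the log2 change was 4.54. PIF7 was lower as a whole gene (log2 change -0.48). AT5G24650, annotated as a subunit of the inner mitochondrial membrane import machinery, had 2.92%, 2.64% and 2.36% in the gemin2 libraries, against 0.130%, 0.134% and 0.232% in the WT libraries for intron I005 (log2 change 3.93 ± 0.43, adjusted p = 9.86e-08). The change at 22 °C was 3.72 for this intron and 3.43 for that of PIF7, and both had passed the test there.

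In clock genes of the day and evening, 5 of 12 tested introns, which lie in 8 genes, were higher and none was lower, with a median of 0.81 (12.1%, 1.69% and 0.24 for all tested introns). The rise in APRR3 (AT5G60100) was in the stretch I011, whose 466 bp all lie in RefSeq exons. Its call was lost without WT library C (log2 change 0.96, adjusted p = 0.0982), while without WT library B the log2 change was 2.44. TOC1 (AT5G61380), the evening pseudo-response regulator of the clock, had 2.81%, 4.33% and 3.19% in the gemin2 libraries, against 0.263%, 1.03% and 0.458% in the WT libraries for its first intron I001 (log2 change 2.51 ± 0.37, adjusted p = 1.3e-05, and 3.15 without WT library B). The 84 bp intron I004 of TOC1 had 2.98%, 2.26% and 2.61% in the gemin2 libraries, against 1.14%, 0.642% and 0.917% in the WT libraries (log2 change 1.56 ± 0.29, adjusted p = 0.000262). In both introns the lowest gemin2 library was above the highest WT library. PRR5 (AT5G24470), another pseudo-response regulator, had 1.62%, 2.12% and 2.53% in the gemin2 libraries, against 0.921%, 0.614% and 0.766% in the WT libraries for intron I001 (log2 change 1.45 ± 0.31, adjusted p = 0.00151), again without overlap. Among morning genes 1 of 19 introns was higher and 1 lower, with a median of -0.04. RVE2 (AT5G37260), a relative of CCA1, held the one that was higher, and its intron I002 had 9.25%, 9.06% and 9.23% in the gemin2 libraries, against 3.68%, 1.89% and 2.22% in the WT libraries (log2 change 1.85 ± 0.33, adjusted p = 0.000178). CCA1 (AT2G46830) held the lower one, with 0.0222%, 0% and 0.163% in the gemin2 libraries, against 0.460%, 0.320% and 0.397% in the WT libraries for intron I005 (log2 change -2.83 ± 0.74, adjusted p = 0.0076), and this call was lost without gemin2 library A or B (adjusted p = 0.0557 and 0.0538), while without library C the log2 change was -4.54.

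In cold-regulated genes 3 of 18 introns were higher and 2 lower (12.1% and 1.69% of all tested introns), so the rises were near the share of all introns. COR28 (AT4G33980), a cold-induced regulator of the clock, had 7.72%, 6.41% and 5.33% in the gemin2 libraries, against 0.898%, 1.88% and 1.06% in the WT libraries for intron I002 (log2 change 2.30 ± 0.40, adjusted p = 0.000118). COR15B (AT2G42530), which encodes a chloroplast protein that protects membranes in frost, had 5.47%, 4.54% and 4.36% in the gemin2 libraries, against 0.792%, 1.87% and 2.23% in the WT libraries for intron I001 (log2 change 1.49 ± 0.29, adjusted p = 0.0005). In neither did the groups overlap. KIN1 (AT5G15960), a small cold-induced protein, had the opposite: its intron I002 had 0.0432%, 0.0539% and 0.0567% in the gemin2 libraries, against 0.186%, 0.161% and 0.124% in the WT libraries (log2 change -1.58 ± 0.39, adjusted p = 0.0051), on 23 counts in gemin2 and 32 in WT. The gene KIN1 itself rose, and with library size in place of the gene count as offset the call was lost (log2 change -0.89, adjusted p = 0.139). Among early stress genes 6 of 10 tested introns, which lie in 5 genes, were higher, with a median of 1.39 (0.24 for all). WRKY33 (AT2G38470), a transcription factor of defence against necrotrophs, had 3.28%, 2.39% and 2.09% in the gemin2 libraries, against 0.217%, 0.0746% and 0.0410% in the WT libraries for its first intron (log2 change 4.71 ± 0.52, adjusted p = 9.66e-08, and 5.34 without WT library A). The gene AT2G38480 overlaps the span of WRKY33, and its overlap with this intron was not checked.

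Of the 48 tested introns in genes of SR proteins, which bind exons and recruit the spliceosome, 8 were higher, none was lower, and the median was 0.26 (12.1%, 1.69% and 0.24 for all tested introns). SR30 (AT1G09140) had 2.67%, 4.30% and 2.99% in the gemin2 libraries, against 1.13%, 1.37% and 0.310% in the WT libraries for intron I010 (log2 change 1.82 ± 0.34, adjusted p = 0.000266). RS31 (AT3G61860) had 11.9%, 19.3% and 17.5% in the gemin2 libraries, against 7.13%, 6.04% and 8.53% in the WT libraries for its long intron I004 (log2 change 1.15 ± 0.20, adjusted p = 0.000107). The gemin2 libraries of both genes lay above all WT libraries. GRP7 (AT2G21660), a clock-controlled RNA-binding protein that steers the splicing of its own transcript, had 8.77%, 10.1% and 8.72% in the gemin2 libraries, against 3.93%, 4.59% and 3.96% in the WT libraries for its intron I002 (log2 change 1.14 ± 0.12, adjusted p = 6.66e-08). The ends of that intron, on the minus strand at chr2:9265894-9266202, are shown with the last exon bases in lower case before the capitals of the donor and after those of the acceptor.
GRP7 intron I002 donor: aagGTCTGTtacacg
GRP7 intron I002 acceptor: ttatttggataacAGatc
The donor matches CAGGTAAGT in 6 of 9 letters. In genes of the U1, U2 and U12 particles none of 26 tested introns passed edgeR's test in either direction (1 higher and 0 lower at an unadjusted p under 0.05, and none in DESeq2), and in genes of Sm and LSm proteins 1 of 22 was higher.

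Of the 8 largest rises among introns that average 20 counts or more and whose groups are apart, 3 rested on fewer than 5 counts over the WT libraries. Intron I001 of AT5G44090, a calcium-binding EF-hand protein, had 119 counts in gemin2 and 1 in WT, a ratio of 63.2 relative to the gene's counts (95% exact interval for counting error 11.1 to 2517.4). Intron I002 of AT1G02080, annotated as a transcription regulator, had 149 counts in gemin2 and 2 in WT, a ratio of 52.8 (14.4 to 439.7). The intron I005 of AT5G53500, a WD40 repeat protein, had 2.09%, 1.90% and 1.58% in the gemin2 libraries, against 0%, 0% and 0.262% in the WT libraries (log2 change 4.00 ± 0.69, adjusted p = 0.00011), on 123 counts in gemin2 and 4 in WT, all in library C. All gemin2 libraries exceeded all WT libraries in these, as the choice required. ARF1 (AT1G59750), an auxin response factor, had 5.18%, 4.01% and 5.87% in the gemin2 libraries, against 0.221%, 0.344% and 0.132% in the WT libraries for intron I002 (log2 change 4.38 ± 0.36, adjusted p = 3.19e-10). ESP (AT1G54040), the epithiospecifier protein that turns glucosinolate breakdown towards nitriles, had 16.6%, 23.0% and 24.7% in the gemin2 libraries, against 0.794%, 0.856% and 0.339% in the WT libraries for the 1865 bp stretch counted as its intron (log2 change 4.99 ± 0.24, adjusted p = 2.49e-15). RefSeq transcripts have 487 exon bases within this stretch, and it begins with AT where GT is usual, so it is not a plain intron.

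Few introns fell. Of the 8 largest falls by the naming rule, 2 adjoined cassette exons that fell with them. The genes of these changed by 0.08 (AT3G06760, not past the threshold) and -0.21 (AT5G53850) on the log2 scale. AT3G06760, annotated as a drought-responsive family protein, had 2.27%, 0.922% and 1.15% in the gemin2 libraries, against 9.12%, 6.71% and 8.04% in the WT libraries for intron I004 (log2 change -2.42 ± 0.35, adjusted p = 8.15e-06) and 2.19%, 0.922% and 1.44% in the gemin2 libraries, against 8.66%, 5.93% and 7.31% in the WT libraries for the 41 bp cassette exon E005 that follows it (log2 change -2.24 ± 0.38, adjusted p = 0.000451). AT5G53850, a haloacid dehalogenase-like hydrolase, had 1.68%, 0.601% and 1.21% in the gemin2 libraries, against 6.04%, 6.61% and 5.63% in the WT libraries for intron I013 (log2 change -2.36 ± 0.29, adjusted p = 5.95e-07). RefSeq transcripts have exon bases over all 388 bp of this stretch, and 1 of 6 transcripts holds it whole, so it is not a plain intron. Its 48 bp cassette exon E012 had 1.02%, 0.324% and 0.656% in the gemin2 libraries, against 3.21%, 2.77% and 3.52% in the WT libraries (log2 change -2.20 ± 0.40, adjusted p = 0.00096). The libraries of the groups did not overlap in these 4 regions, which the naming rule required. These exons are shown because gemin2 libraries read them less often, with the exon in capitals and the flanking intron bases in lower case.
AT3G06760 exon E005, chr3:2133541-2133581, plus strand: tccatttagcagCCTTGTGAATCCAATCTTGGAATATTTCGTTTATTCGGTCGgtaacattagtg
AT5G53850 exon E012, chr5:21863653-21863700, minus strand: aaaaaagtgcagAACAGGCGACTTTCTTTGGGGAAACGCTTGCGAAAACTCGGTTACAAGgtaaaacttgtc
LHCB6 (AT1G15820), a light-harvesting protein, had the largest fall of the 8, with 0.0850%, 0.0801% and 0.0953% in the gemin2 libraries, against 0.138%, 0.139% and 1.14% in the WT libraries for intron I001 (log2 change -2.45 ± 0.65, adjusted p = 0.0243). WT library C stood far above the other libraries, and without it the log2 change was -0.67. The call was lost without gemin2 library A, B or C (adjusted p = 0.0642, 0.0889 and 0.0730) and with only the compared groups in the fit (adjusted p = 0.244). The gene AT1G15810 overlaps LHCB6. The remaining 5 falls lay between -1.87 and -1.82 on the log2 scale, in AT1G22330, ESP4, AT4G40050 (-2.80 without gemin2 library A), AT1G70620 and RPT2. All 234 bp of the AT1G70620 stretch lie in RefSeq exons, and 5 of 9 transcripts hold it whole.

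Of 3809 alternative splicing bins tested relative to their gene, 237 (6.22%) were higher and 85 (2.23%) were lower in gemin2, which is 8.45% in either direction, and the groups did not overlap for 27.8%. At 22 °C, where the WT libraries were shallower, 70 bins (1.84%) were higher and 34 (0.893%) lower. The count after 1 h depends on single libraries. Without gemin2 library A, B or C the bins that were higher numbered 380, 100 and 121, and without WT library A or B 127 and 102. The bins that were lower numbered 191, 21 and 24 without gemin2 library A, B or C, and 36 and 25 without WT library A or B. By the class the table gives, 95 of 1058 retained introns (8.98%) were higher and 26 were lower. Of bins at alternative donors 34 of 559 (6.08%) were higher and 10 lower, and of bins at alternative acceptors 34 of 1240 (2.74%) were higher and 25 lower. For skipped exons the counts were 14 higher and 8 lower of 337, and for bins of several classes 60 and 16 of 615.

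U1-70K (AT3G50670) encodes the U1 snRNP protein that binds the U1 RNA and contacts SR proteins. Its bin E005, a retained intron of 909 bp, had 0.146%, 0.171% and 0.137% in the gemin2 libraries, against 3.04%, 2.97% and 4.05% in the WT libraries, the largest fall of all bins past the threshold (log2 change -4.46 ± 0.23, adjusted p = 3.59e-13). The 3 gemin2 libraries hold 28 counts together and the 3 WT libraries 586. The change was -3.93 at 22 °C. BBD1 (AT1G75380), a nuclease of basal defence, had the reverse in its 75 bp retained intron E002, with 3.17%, 2.81% and 2.88% in the gemin2 libraries, against 0.231%, 0.277% and 0.128% in the WT libraries (log2 change 3.80 ± 0.36, adjusted p = 5.61e-08), and 3.81 at 22 °C. The ends of both introns, on the minus strand at chr3:18827440-18828348 and chr1:28281709-28281783, are shown because retention moved in opposite directions, with the capitals as for the introns above.
U1-70K bin E005 donor: cggGTAGGTtattct
U1-70K bin E005 acceptor: tctgaaacttctcAGgtt
BBD1 bin E002 donor: gagGTAAGGagatat
BBD1 bin E002 acceptor: ttctccttggggcAGctc
Both donors match CAGGTAAGT in 7 of 9 letters.

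**Figure D2:**
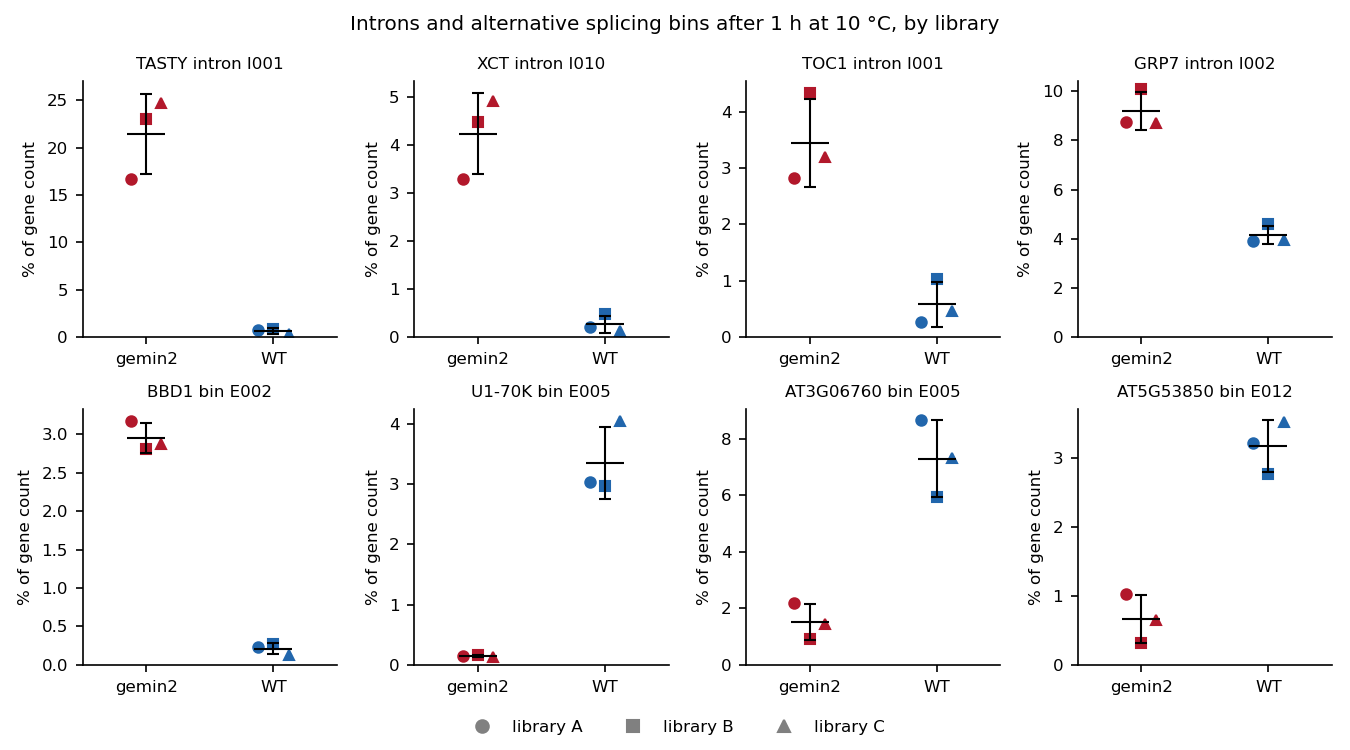
Counts of 4 introns (top) and 4 alternative splicing bins (bottom) as percent of the count of their gene in each library after 1 h at 10 °C, gemin2 left of WT, with mean and SD as bars (n = 3 each). The vertical axes start at 0 and differ between panels. ESP appears under its file symbol TASTY. The 3 libraries of a group never overlap those of the other, which was a condition for naming ESP and the 4 bins.

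CIPK3 (AT2G26980), a protein kinase of calcium signalling, held retained introns that were higher. Its bin E004 had 5.19%, 4.52% and 3.74% in the gemin2 libraries, against 1.05%, 0.406% and 0.743% in the WT libraries (log2 change 2.69 ± 0.45, adjusted p = 0.000798) and bin E002 had 1.25%, 1.19% and 1.49% in the gemin2 libraries, against 0%, 0.102% and 0.139% in the WT libraries (log2 change 3.68 ± 0.71, adjusted p = 0.00162). The gene was higher as well. Both bins were named among the largest rises, for which libraries without overlap were a condition. The donor bin E004 of OBE2 (AT5G48160), a PHD finger protein of the meristem, had 0.726%, 1.14% and 1.63% in the gemin2 libraries, against 0%, 0.155% and 0.0394% in the WT libraries (log2 change 3.84 ± 0.60, adjusted p = 0.000129, and 5.24 without WT library B). Bin E010 of iPGAM2 (AT3G08590), a glycolytic phosphoglycerate mutase, had 2.65%, 2.63% and 2.33% in the gemin2 libraries, against 0.190%, 0.0692% and 0.450% in the WT libraries (log2 change 3.41 ± 0.35, adjusted p = 3.11e-07, and 4.42 without WT library C). In the SR genes, 3 bins were higher and 1 lower of 23 (6.22% and 2.23% of all bins). The acceptor bin E006 of RS2Z32 (AT3G53500) had 4.43%, 6.30% and 4.79% in the gemin2 libraries, against 2.85%, 3.25% and 3.34% in the WT libraries (log2 change 0.70 ± 0.19, adjusted p = 0.0189). SR30's acceptor bin E003 was the lower one, with 9.89%, 10.9% and 7.69% in the gemin2 libraries, against 14.6%, 12.4% and 14.8% in the WT libraries (log2 change -0.55 ± 0.14, adjusted p = 0.0125). The RS2Z32 call was lost without gemin2 library B or WT library A or B (log2 change 0.54, 0.64 and 0.73), and that of SR30 without gemin2 library C or WT library A (-0.42 and -0.52). With library size in place of the gene count as offset, both calls were lost, with a log2 change of 0.15 for RS2Z32 (adjusted p = 0.626) and -0.37 for SR30 (adjusted p = 0.0985), so relative to the whole library these bins were not shown to change.

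Genes that encode parts of the spliceosome moved by small amounts. Of 24 genes of Sm and LSm proteins, which form the rings on the snRNAs, 11 were higher and none was lower in gemin2 (16.6% and 17.4% of all genes), with a median of 0.24. SMD1A (AT3G07590) had 18.5, 21.3 and 20.3 CPM in the gemin2 libraries, against 10.7, 10.5 and 12.4 CPM in the WT libraries (log2 change 0.83 ± 0.11, adjusted p = 1.3e-05), and AT3G07600 overlaps it. LSM3A (AT1G21190) had 15.6, 16.2 and 15.7 CPM in the gemin2 libraries, against 10.8, 11.1 and 11.4 CPM in the WT libraries (log2 change 0.51 ± 0.11, adjusted p = 0.00167). In both, each gemin2 library exceeded each WT library. The counts were 12 higher and 3 lower without gemin2 library A. Among factors of the U5 and U4/U6.U5 particles and the Prp19 complex, 8 of 15 were higher and 1, XCT, was lower, with a median of 0.22. At 22 °C 9 of these were higher and 0 lower already, with a median of 0.30. STA1 (AT4G03430), a U5 factor needed for cold tolerance, had 151, 121 and 135 CPM in the gemin2 libraries, against 94.2, 93.2 and 87.2 CPM in the WT libraries (log2 change 0.57 ± 0.10, adjusted p = 0.000271). PRP3 (AT1G28060), a U4/U6 protein, had 99.8, 85.5 and 85.3 CPM in the gemin2 libraries, against 56.9, 64.2 and 54.6 CPM in the WT libraries (log2 change 0.62 ± 0.09, adjusted p = 2.1e-05). These values did not overlap between the groups.

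Of 21 genes of the U1, U2 and U12 particles and the 3′ splice site factors, 5 were higher and 4 lower (16.6% and 17.4% of all genes). U2AF65A (AT4G36690), which binds the polypyrimidine tract, had 119, 93.0 and 94.5 CPM in the gemin2 libraries, against 153, 183 and 138 CPM in the WT libraries (log2 change -0.63 ± 0.11, adjusted p = 0.000278), and U2A (AT1G09760) had 18.2, 20.1 and 19.8 CPM in the gemin2 libraries, against 14.5, 14.8 and 15.7 CPM in the WT libraries (log2 change 0.37 ± 0.09, adjusted p = 0.0035). The groups did not overlap for either gene. Members that were higher numbered 2 and 3 without gemin2 library A or C, and 3, 2 and 1 without WT library A, B or C. Members that were lower numbered 2 without gemin2 library B or C or WT library B. Of 4 factors that assemble snRNPs, 2 were higher and 1, GEMIN2, was lower. SPF30 (AT2G02570), the splicing factor related to SMN, had 39.4, 43.6 and 41.1 CPM in the gemin2 libraries, against 28.2, 29.9 and 33.5 CPM in the WT libraries (log2 change 0.44 ± 0.10, adjusted p = 0.00265). ICLN (AT5G62290), a chaperone of Sm proteins, had 9.27, 12.8 and 12.5 CPM in the gemin2 libraries, against 7.26, 7.27 and 7.22 CPM in the WT libraries (log2 change 0.67 ± 0.16, adjusted p = 0.00346). Both were higher in each gemin2 library than in each WT library, and the arginine methyltransferase PRMT5 did not pass the test.

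Of 20 genes of SR proteins, 9 were lower in gemin2 and none was higher (17.4% and 16.6% of all genes), 11 did not pass, and the median was -0.40. RS2Z32 (AT3G53500) had 126, 96.2 and 105 CPM in the gemin2 libraries, against 153, 163 and 158 CPM in the WT libraries (log2 change -0.53 ± 0.11, adjusted p = 0.000844), and SCL30A (AT3G13570) had 97.6, 82.0 and 75.6 CPM in the gemin2 libraries, against 127, 116 and 111 CPM in the WT libraries (log2 change -0.47 ± 0.10, adjusted p = 0.00107). Each gemin2 library was below each WT library. The count was 13 without gemin2 library A, 3 without gemin2 library B, 4 without gemin2 library C and 5 without WT library A or B. Of 11 related RNA-binding proteins 3 were higher, GRP7 among them, and 3 were lower (1 higher without WT library A, 5 lower without gemin2 library A, and 1 lower without gemin2 library B or C). Of 8 genes of nonsense-mediated decay and the exon junction 2 were higher, and 1 passed without gemin2 library B or C or WT library A or B. GRP7 had 1108, 1068 and 1109.7 CPM in the gemin2 libraries, against 814, 552 and 778 CPM in the WT libraries (log2 change 0.62 ± 0.13, adjusted p = 0.00083), without overlap. RZ-1C (AT5G04280), a zinc finger RNA-binding protein, had 82.2, 57.8 and 61.1 CPM in the gemin2 libraries, against 100.2, 92.0 and 94.9 CPM in the WT libraries (log2 change -0.51 ± 0.12, adjusted p = 0.00262), and all gemin2 libraries were lower.

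The circadian clock of plants runs on loops in which CCA1 and LHY, expressed in the morning, repress evening genes, while PRR9, PRR7, PRR5 and TOC1 repress CCA1 and LHY in turn. Of 13 day and evening genes, 9 were higher and 1 lower in gemin2 (16.6% and 17.4% of all genes), with a median of 0.59. At 22 °C 8 were higher and 0 lower already, with a median of 0.67. The genotype difference after 1 h minus that at 22 °C passed the test for none of them. PRR7 (AT5G02810) had 87.7, 85.0 and 88.0 CPM in the gemin2 libraries, against 20.6, 23.1 and 26.3 CPM in the WT libraries (log2 change 1.89 ± 0.11, adjusted p = 2.59e-10). GI (AT1G22770), a clock protein of light and flowering signalling, had 52.4, 52.4 and 49.9 CPM in the gemin2 libraries, against 22.6, 22.4 and 21.3 CPM in the WT libraries (log2 change 1.22 ± 0.11, adjusted p = 1.16e-07). PRR5 had 292, 262 and 228 CPM in the gemin2 libraries, against 111, 94.7 and 107 CPM in the WT libraries (log2 change 1.32 ± 0.14, adjusted p = 1.87e-06). The lowest gemin2 library was above the highest WT library for each. TOC1 had 83.6, 80.2 and 76.8 CPM in the gemin2 libraries, against 53.0, 45.3 and 55.6 CPM in the WT libraries (log2 change 0.65 ± 0.10, adjusted p = 6.55e-05), so its gene count rose together with the introns described above. FKF1 (AT1G68050), a blue light receptor, had 98.5, 61.8 and 67.1 CPM in the gemin2 libraries, against 34.8, 23.9 and 32.7 CPM in the WT libraries (log2 change 1.32 ± 0.24, adjusted p = 0.000845). ELF3 (AT2G25930), a subunit of the evening complex, was the member that fell, with 61.6, 46.8 and 49.3 CPM in the gemin2 libraries, against 74.8, 68.2 and 69.3 CPM in the WT libraries (log2 change -0.43 ± 0.10, adjusted p = 0.00197). For FKF1 and ELF3, too, the groups did not overlap. Without gemin2 library A, 2 members were lower.

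Morning genes split, with 5 higher and 5 lower of 13 (16.6% and 17.4% of all genes), the same counts in every fit that left out 1 library. CCA1 (AT2G46830) had 91.3, 79.7 and 69.1 CPM in the gemin2 libraries, against 172, 191 and 149.6 CPM in the WT libraries (log2 change -1.09 ± 0.12, adjusted p = 1.2e-06). LHY (AT1G01060) had 42.5, 51.2 and 47.2 CPM in the gemin2 libraries, against 87.1, 102 and 92.8 CPM in the WT libraries (log2 change -1.003 ± 0.11, adjusted p = 1.74e-06). RVE8 (AT3G09600), an activator of evening genes, had 34.8, 27.7 and 26.4 CPM in the gemin2 libraries, against 51.9, 68.3 and 52.7 CPM in the WT libraries (log2 change -0.96 ± 0.13, adjusted p = 1.37e-05). All gemin2 libraries were below all WT libraries in these genes. RVE7 (AT1G18330), another member of the same family, went the other way with 6.84, 7.37 and 6.82 CPM in the gemin2 libraries, against 1.81, 1.66 and 1.67 CPM in the WT libraries (log2 change 2.04 ± 0.19, adjusted p = 1.61e-07). LNK1 (AT5G64170) and LNK2 (AT3G54500) are coactivators that work with RVE8. LNK1 had 43.4, 49.2 and 51.8 CPM in the gemin2 libraries, against 23.1, 26.5 and 23.0 CPM in the WT libraries (log2 change 0.99 ± 0.11, adjusted p = 2.49e-06). LNK2 had 160.5, 166 and 159 CPM in the gemin2 libraries, against 98.1, 111 and 100.1 CPM in the WT libraries (log2 change 0.65 ± 0.10, adjusted p = 6.86e-05), and AT3G54490 overlaps it. Their libraries did not overlap between the groups.

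**Figure D3:**
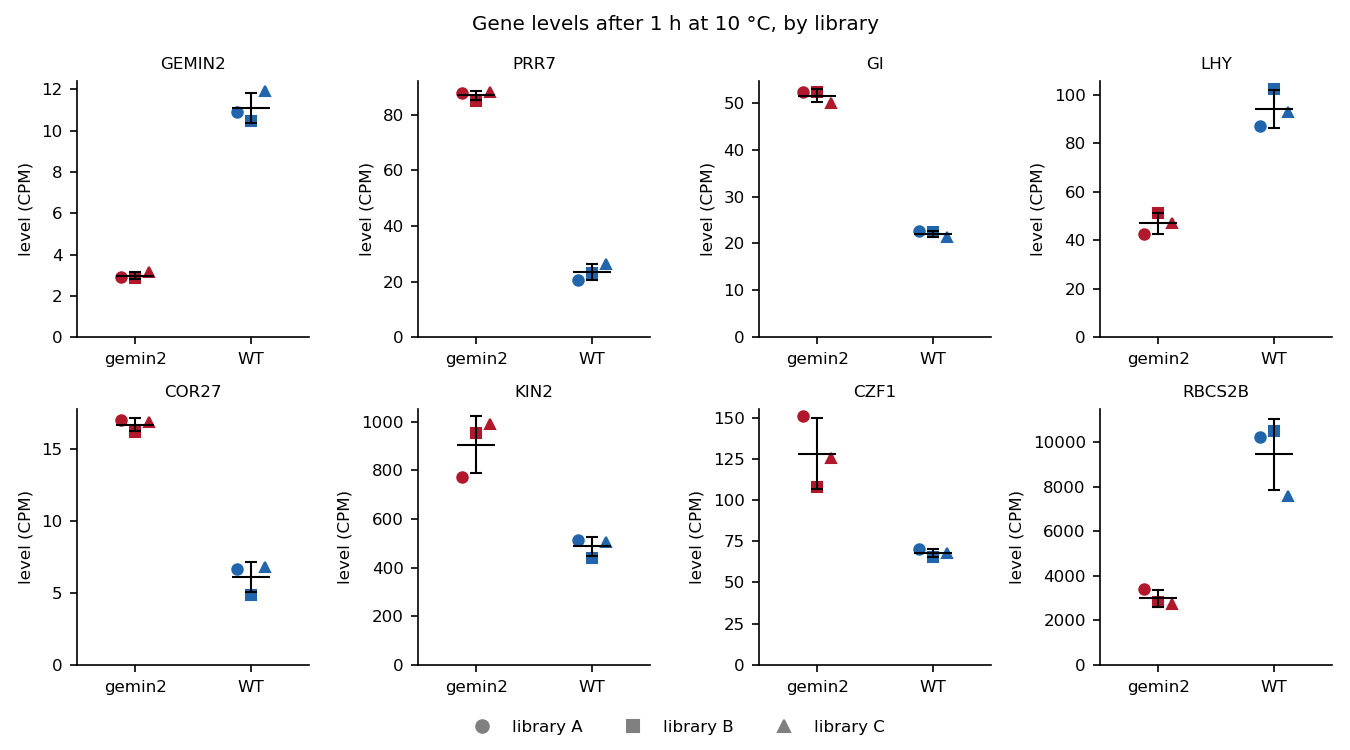
Levels of 8 genes (CPM) in each library after 1 h at 10 °C, gemin2 left of WT, with mean and SD as bars (n = 3 each). The vertical axes start at 0 and differ between panels: PRR7, GI, COR27, KIN2 and CZF1 lie higher in gemin2, and GEMIN2, LHY and RBCS2B lie lower, without overlap.

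CBF1, CBF2 and CBF3 are transcription factors induced early in cold, and they activate the COR genes that build freezing tolerance. Of 21 tested genes in this group 9 were higher and 3 were lower in gemin2 (16.6% and 17.4% of all genes), with a median of 0.39, and CBF4, DDF1 and DDF2 were too low to be tested. At 22 °C 8 were higher and 1 lower already, with a median of 0.57. The genotype difference after 1 h minus that at 22 °C passed the test for none of them. CBF3 (AT4G25480) had 40.8, 17.2 and 15.0 CPM in the gemin2 libraries, against 8.84, 7.21 and 8.95 CPM in the WT libraries (log2 change 1.55 ± 0.40, adjusted p = 0.00884), and the gemin2 libraries were above the WT libraries, library A by the most. The log2 change of CBF3 was 0.95 without gemin2 library A (adjusted p = 0.0258). CBF1 and CBF2, its close copies whose reads may be shared, did not pass the test (log2 change 0.23 and 0.64), and without gemin2 library A their log2 changes were -0.51 and 0.02. COR27 (AT5G42900), a cold-induced regulator of the clock, had 17.1, 16.2 and 16.9 CPM in the gemin2 libraries, against 6.65, 4.88 and 6.82 CPM in the WT libraries (log2 change 1.45 ± 0.15, adjusted p = 8.73e-07). Its relative COR28 had 26.3, 24.6 and 23.8 CPM in the gemin2 libraries, against 15.5, 12.4 and 13.4 CPM in the WT libraries (log2 change 0.86 ± 0.14, adjusted p = 0.000146). KIN2 (AT5G15970) had 771, 951 and 990.5 CPM in the gemin2 libraries, against 514, 440.1 and 506 CPM in the WT libraries (log2 change 0.89 ± 0.12, adjusted p = 1.45e-05), and KIN1, its near copy, had 282, 446 and 398 CPM in the gemin2 libraries, against 250.1, 217 and 229 CPM in the WT libraries (log2 change 0.69 ± 0.14, adjusted p = 0.000758). COR413-PM1 (AT2G15970), a membrane protein, had 73.7, 86.2 and 86.4 CPM in the gemin2 libraries, against 43.2, 39.2 and 45.9 CPM in the WT libraries (log2 change 0.94 ± 0.10, adjusted p = 1.31e-06). In these genes from CBF3 to COR413-PM1 that passed, the groups did not overlap. COR15A (AT2G42540) fell, with 47.5, 49.1 and 49.9 CPM in the gemin2 libraries, against 95.8, 74.3 and 60.5 CPM in the WT libraries (log2 change -0.65 ± 0.20, adjusted p = 0.0207), while COR15B (log2 change 0.15) did not pass. The COR15A call was lost without gemin2 library A, B or C or WT library A (log2 change -0.63, -0.64, -0.66 and -0.47), and 1 member of the group was lower without gemin2 library B or C or WT library A.

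Among 14 regulators of CBF genes, 6 were higher and 1, PIF7, was lower (16.6% and 17.4% of all genes). PIF4 (AT2G43010), a phytochrome-interacting factor that promotes growth in warmth, had 67.8, 60.2 and 58.5 CPM in the gemin2 libraries, against 28.1, 28.7 and 28.4 CPM in the WT libraries (log2 change 1.13 ± 0.14, adjusted p = 4.44e-06). EIN3 (AT3G20770), the ethylene transcription factor that represses CBF genes, had 86.3, 93.0 and 92.1 CPM in the gemin2 libraries, against 67.0, 65.1 and 67.9 CPM in the WT libraries (log2 change 0.44 ± 0.08, adjusted p = 0.0002). CAMTA3 (AT2G22300), a calmodulin-binding activator of CBF2, had 42.9, 48.7 and 49.0 CPM in the gemin2 libraries, against 40.4, 35.2 and 39.8 CPM in the WT libraries (log2 change 0.29 ± 0.09, adjusted p = 0.0201). The 3 genes had no overlap, but the CAMTA3 call was lost without gemin2 library B or C or WT library B (log2 change 0.27, 0.27 and 0.23). The count of members that were higher was 2 without gemin2 library C and 3 without WT library A.

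Of 28 genes induced within minutes of touch, calcium influx or cold, 12 were higher and none was lower (16.6% and 17.4% of all genes), 16 did not pass, and the median was 0.60. CZF1 (AT2G40140), a zinc finger protein induced by cold, had 151, 108 and 126 CPM in the gemin2 libraries, against 70.5, 65.7 and 67.8 CPM in the WT libraries (log2 change 0.91 ± 0.10, adjusted p = 1.04e-06). Its relative SZF1 (AT3G55980) had 367, 337 and 344 CPM in the gemin2 libraries, against 202, 185 and 193 CPM in the WT libraries (log2 change 0.86 ± 0.11, adjusted p = 7.2e-06). ERF5 (AT5G47230), an ethylene response factor, had 27.2, 19.7 and 28.8 CPM in the gemin2 libraries, against 8.93, 10.1 and 10.2 CPM in the WT libraries (log2 change 1.37 ± 0.17, adjusted p = 4.37e-06). WRKY33 had 153, 122 and 137 CPM in the gemin2 libraries, against 64.3, 77.9 and 69.1 CPM in the WT libraries (log2 change 0.96 ± 0.14, adjusted p = 4.33e-05). The gemin2 libraries were above all WT libraries in each of these genes, and library A was the highest of them except for ERF5. WRKY40 (log2 change -0.04) and ZAT10 (-0.55), a zinc finger repressor, did not pass. Without gemin2 library A, ZAT10 was the 1 member that was lower (log2 change -1.30, adjusted p = 0.0213). At 22 °C 7 of the 28 were higher, with a median of 0.40. The genotype difference after 1 h minus that at 22 °C passed the test for none of them.

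Of 21 tested genes of heat shock and protein folding, 11 were higher and none was lower (16.6% and 17.4% of all genes), with a median of 0.49. At 22 °C 4 were higher, with a median of 0.31. The genotype difference after 1 h minus that at 22 °C passed the test for none of them. HSP90.1 (AT5G52640), a cytosolic chaperone, had 24.3, 22.1 and 23.7 CPM in the gemin2 libraries, against 11.7, 15.0 and 14.7 CPM in the WT libraries (log2 change 0.75 ± 0.11, adjusted p = 3.6e-05). BIP3 (AT1G09080), a chaperone of the endoplasmic reticulum, had 1.54, 2.03 and 1.16 CPM in the gemin2 libraries, against 0.233, 0.378 and 0.283 CPM in the WT libraries (log2 change 2.35 ± 0.46, adjusted p = 0.000687). DREB2A (AT5G05410), a transcription factor of heat and drought, had 5.05, 5.15 and 5.38 CPM in the gemin2 libraries, against 3.30, 1.54 and 2.32 CPM in the WT libraries (log2 change 1.15 ± 0.24, adjusted p = 0.00114). No library of gemin2 fell into the range of WT. Without WT library C, 7 members were higher, and 1 was lower without gemin2 library A or WT library A or C.

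Of 15 enzymes of flavonoid and anthocyanin synthesis, 13 were lower and none was higher (17.4% and 16.6% of all genes), with a median of -1.50, and the count of 13 held in every fit that left out 1 library. GSTF12 (AT5G17220), which carries anthocyanins to the vacuole, had 3.96, 2.56 and 1.61 CPM in the gemin2 libraries, against 33.2, 29.0 and 29.9 CPM in the WT libraries (log2 change -3.47 ± 0.45, adjusted p = 9.75e-05). DFR (AT5G42800), an enzyme of anthocyanin synthesis, had 5.03, 5.34 and 3.64 CPM in the gemin2 libraries, against 27.6, 22.9 and 24.2 CPM in the WT libraries (log2 change -2.41 ± 0.33, adjusted p = 0.000123). UGT75C1 (AT4G14090), a glucosyltransferase of anthocyanins, had 8.11, 7.82 and 7.05 CPM in the gemin2 libraries, against 25.5, 22.1 and 22.2 CPM in the WT libraries (log2 change -1.60 ± 0.16, adjusted p = 7.59e-07). The PAL1 and PAL2 genes, at the entry of phenylpropanoid synthesis, did not pass. Of the 14 regulators 9 were lower and 2 higher, and 1 was higher without gemin2 library B or C or WT library A or B. PAP1 (AT1G56650), the MYB activator of anthocyanin genes, had 0.832, 0.748 and 0.648 CPM in the gemin2 libraries, against 4.70, 4.68 and 5.04 CPM in the WT libraries (log2 change -2.68 ± 0.20, adjusted p = 6.62e-09). MYB111 (AT5G49330), an activator of flavonol genes, had 3.77, 4.83 and 2.79 CPM in the gemin2 libraries, against 22.3, 19.4 and 19.96 CPM in the WT libraries (log2 change -2.43 ± 0.18, adjusted p = 6.62e-09). The repressor MYBL2 (AT1G71030) rose, with 15.2, 10.4 and 14.6 CPM in the gemin2 libraries, against 3.44, 3.92 and 3.28 CPM in the WT libraries (log2 change 1.91 ± 0.24, adjusted p = 1.96e-05). In all of these genes the groups were apart. At 22 °C 13 enzymes were lower as well.

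Nuclear genes of photosynthesis moved in both directions, with 7 higher and 9 lower of 31 (16.6% and 17.4% of all genes) and a median of -0.27. RBCS2B (AT5G38420), a small subunit gene of Rubisco, had 3409, 2826 and 2719 CPM in the gemin2 libraries, against 10242, 10518 and 7602 CPM in the WT libraries (log2 change -1.66 ± 0.19, adjusted p = 3.25e-06). RCA (AT2G39730), Rubisco activase, had 9344, 6206 and 6308 CPM in the gemin2 libraries, against 15208, 16147 and 13415 CPM in the WT libraries (log2 change -1.03 ± 0.17, adjusted p = 9.47e-05). LHCB4.3 (AT2G40100), a minor antenna protein, had 36.7, 16.8 and 14.9 CPM in the gemin2 libraries, against 159, 147 and 134 CPM in the WT libraries (log2 change -2.68 ± 0.42, adjusted p = 0.000407). The gemin2 libraries were lower without overlap. Some genes of the major antenna rose, among them LHCB1.4 (AT2G34430) with 8507, 5747 and 6549 CPM in the gemin2 libraries, against 3649, 3146 and 3018 CPM in the WT libraries (log2 change 1.08 ± 0.16, adjusted p = 4.09e-05) and LHCB1.2 (AT1G29910) with 15331, 12218 and 11853 CPM in the gemin2 libraries, against 7379, 7201 and 6899 CPM in the WT libraries (log2 change 0.88 ± 0.15, adjusted p = 0.000133). In these every gemin2 library was above every WT library. The RBCS genes share long identical stretches, as do those of LHCB1, so reads may be assigned to the wrong copy. Without gemin2 library A 15 members were lower.

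Flowering genes showed single large changes, with 5 higher and 10 lower of 29 tested (16.6% and 17.4% of all genes) and a median of -0.17. CO (AT5G15840), the activator of flowering in long days, had 5.29, 7.13 and 6.20 CPM in the gemin2 libraries, against 36.7, 34.4 and 29.6 CPM in the WT libraries (log2 change -2.44 ± 0.15, adjusted p = 4.11e-10). FLC (AT5G10140), a repressor of flowering, had 0.223, 0.320 and 0.254 CPM in the gemin2 libraries, against 1.58, 2.15 and 2.10 CPM in the WT libraries (log2 change -2.87 ± 0.36, adjusted p = 5.39e-06). MAF5 (AT5G65080), a relative of FLC, rose with 2.54, 2.19 and 3.16 CPM in the gemin2 libraries, against 0.465, 0.262 and 0.255 CPM in the WT libraries (log2 change 3.05 ± 0.42, adjusted p = 1.93e-05). SOC1 (AT2G45660), the integrator that FLC represses, had 27.4, 32.3 and 30.7 CPM in the gemin2 libraries, against 11.9, 15.2 and 13.5 CPM in the WT libraries (log2 change 1.15 ± 0.14, adjusted p = 3.02e-06). The libraries of the groups did not overlap, and FT, the mobile signal that CO activates, did not pass (log2 change 0.13). Without WT library B 3 members were higher.

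Of 25 tested genes of xenobiotic and mitochondrial stress 12 were higher and 1 lower (16.6% and 17.4% of all genes), with a median of 0.56 (2 lower without gemin2 library A or WT library B). At 22 °C 10 were higher and 2 lower already, with a median of 0.51. UPOX (AT2G21640), a mitochondrial protein that marks oxidative stress, had 8.84, 7.40 and 6.43 CPM in the gemin2 libraries, against 1.91, 1.54 and 1.30 CPM in the WT libraries (log2 change 2.29 ± 0.19, adjusted p = 7.57e-08). CYP81D8 (AT4G37370), a cytochrome P450, had 46.1, 26.5 and 38.7 CPM in the gemin2 libraries, against 5.07, 11.2 and 7.48 CPM in the WT libraries (log2 change 2.21 ± 0.24, adjusted p = 1.19e-05). DTX3 (AT2G04050), a MATE efflux carrier with close copies, had 12.6, 8.86 and 11.4 CPM in the gemin2 libraries, against 0.791, 1.02 and 1.95 CPM in the WT libraries (log2 change 3.07 ± 0.30, adjusted p = 5.88e-06). AOX1D (AT1G32350), an alternative oxidase, had 1.76, 3.36 and 3.04 CPM in the gemin2 libraries, against 0, 0.116 and 0.283 CPM in the WT libraries (adjusted p = 0.00017). WT was at or near 0 for AOX1D, and the groups were separate for all 4 genes. Of 21 DNA damage genes 12 were higher and 1, KU70, was lower, with a median of 0.47. GMI1 (AT5G24280), a protein of DNA repair, had 15.3, 14.5 and 16.8 CPM in the gemin2 libraries, against 6.05, 5.96 and 5.95 CPM in the WT libraries (log2 change 1.37 ± 0.15, adjusted p = 1.41e-06). PARP2 (AT4G02390), a poly(ADP-ribose) polymerase, had 11.8, 11.1 and 12.3 CPM in the gemin2 libraries, against 6.38, 4.94 and 4.79 CPM in the WT libraries (log2 change 1.14 ± 0.14, adjusted p = 3.68e-06). SMR7 (AT3G27630), an inhibitor of the cell cycle, had 5.44, 4.91 and 6.88 CPM in the gemin2 libraries, against 1.68, 2.35 and 1.81 CPM in the WT libraries (log2 change 1.54 ± 0.18, adjusted p = 2.61e-06). They too were without overlap, and 10 members had been higher at 22 °C. No member was lower without gemin2 library A or C or WT library B or C.

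Hormone and defence lists were mixed, beside 16.6% higher and 17.4% lower among all genes. Of 23 salicylic acid and defence genes 8 were higher and 3 lower. PR1 (AT2G14610), a marker of that hormone, had 11.5, 6.65 and 5.05 CPM in the gemin2 libraries, against 0, 0.116 and 0 CPM in the WT libraries (adjusted p = 0.00158), and WT was at or near 0. CBP60G (AT5G26920), an activator of salicylic acid synthesis, had 19.7, 14.6 and 15.2 CPM in the gemin2 libraries, against 8.56, 6.92 and 10.0 CPM in the WT libraries (log2 change 0.96 ± 0.22, adjusted p = 0.00303). PCC1 (AT3G22231), a small protein under clock control, had 87.6, 48.5 and 52.5 CPM in the gemin2 libraries, against 373, 307 and 298 CPM in the WT libraries (log2 change -2.37 ± 0.59, adjusted p = 0.00848). The libraries of these genes did not overlap. Of 30 tested abscisic acid genes 7 were higher and 6 lower, and 3 were lower without WT library B. ABF2 (AT1G45249), a transcription factor of the hormone's response, had 28.3, 27.0 and 27.7 CPM in the gemin2 libraries, against 42.8, 49.5 and 40.5 CPM in the WT libraries (log2 change -0.68 ± 0.09, adjusted p = 1.48e-05), and PYL7 (AT4G01026), a receptor, had 13.2, 11.9 and 14.7 CPM in the gemin2 libraries, against 6.28, 7.44 and 7.90 CPM in the WT libraries (log2 change 0.87 ± 0.15, adjusted p = 0.000139). Both were separate between the groups. Of 21 tested jasmonate genes 2 were higher and 2 lower, with a median of -0.32. The count of higher ones was 1 without gemin2 library C or WT library A or C, and that of lower ones was 1 without gemin2 library B or C or WT library A or B. JAZ1 (AT1G19180), a repressor of the response, had 73.5, 72.8 and 73.9 CPM in the gemin2 libraries, against 42.5, 47.5 and 43.7 CPM in the WT libraries (log2 change 0.72 ± 0.22, adjusted p = 0.0216). Its gemin2 libraries were higher without overlap, but the call was lost without gemin2 library C or WT library A or C (log2 change 0.73, 0.69 and 0.70).

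For lists of nutrition and growth the shares of all genes to compare with are again 16.6% higher and 17.4% lower. Of 17 sulfur genes 6 were higher and 1 lower, and 3 were higher without gemin2 library A. APR2 (AT1G62180), an enzyme of sulfate reduction, was the member that fell, with 268, 243 and 221 CPM in the gemin2 libraries, against 466, 432 and 453 CPM in the WT libraries (log2 change -0.88 ± 0.09, adjusted p = 8.73e-07), while the sulfur deficiency marker LSU3 (AT3G49570) had 5.01, 3.47 and 4.43 CPM in the gemin2 libraries, against 1.21, 2.15 and 2.10 CPM in the WT libraries (log2 change 1.20 ± 0.23, adjusted p = 0.000503). Of 15 iron genes 2 were higher (0 without WT library A, and 1 without gemin2 library A or C or WT library B) and 4 were lower (2 without gemin2 library B), among them NAS4 (AT1G56430), a nicotianamine synthase, with 19.1, 18.6 and 19.4 CPM in the gemin2 libraries, against 27.2, 27.2 and 33.4 CPM in the WT libraries (log2 change -0.62 ± 0.12, adjusted p = 0.000566). Both these falls were without overlap. Of 11 genes of glucosinolate breakdown 2 were higher and 1 lower (2 without gemin2 library A), the myrosinase TGG2 (AT5G25980), which had 264, 303 and 299.6 CPM in the gemin2 libraries, against 539.7, 549 and 434 CPM in the WT libraries (log2 change -0.81 ± 0.11, adjusted p = 1.41e-05). Of 13 genes of ribosome biogenesis 3 were higher and 2 lower (1 without gemin2 library C). Of 8 reference genes 1, SAND, was lower (log2 change -0.48), while 2 were lower without gemin2 library A and 3 without WT library C.

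Markers of tissues were checked because whole plants can hold them in unequal amounts. Of 13 root markers 8 were lower in gemin2 and none was higher (17.4% and 16.6% of all genes), with a median of -0.73. Every gemin2 library was below every WT library in their summed level, which was 169.6, 140.7 and 146.5 CPM in the gemin2 libraries, against 224.4, 262.8 and 218.2 CPM in the WT libraries. SHR (AT4G37650), a transcription factor of the root's ground tissue, had 26.1, 19.97 and 19.3 CPM in the gemin2 libraries, against 36.4, 38.1 and 34.1 CPM in the WT libraries (log2 change -0.73 ± 0.14, adjusted p = 0.000719), and RHD6 (AT1G66470), which starts root hairs, had 1.03, 1.58 and 1.47 CPM in the gemin2 libraries, against 3.02, 3.81 and 3.48 CPM in the WT libraries (log2 change -1.35 ± 0.25, adjusted p = 0.000412). The groups overlapped in neither gene. The count was 5 without gemin2 library C or WT library B. At 22 °C 1 of the 13 was lower, with a median of -0.38. The genotype difference after 1 h minus that at 22 °C passed the test for none of them. The part of root tissue in the other results was not tested. Of 10 markers of dividing tissue none passed edgeR's test in either direction, with a median of -0.17 (0 higher and 2 lower at an unadjusted p under 0.05, none in DESeq2, and 1 lower without gemin2 library B or WT library B). Of 6 floral organ markers 3 were tested and 1, SEP3 (AT1G24260), was higher, with 3.43, 2.27 and 2.85 CPM in the gemin2 libraries, against 0.884, 0.843 and 1.13 CPM in the WT libraries (log2 change 1.57 ± 0.35, adjusted p = 0.00178). Without gemin2 library B or WT library B 2 were higher. Of 6 seed maturation markers 2 were tested, and none passed in edgeR, in DESeq2 or at an unadjusted p under 0.05.

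**Figure D4:**
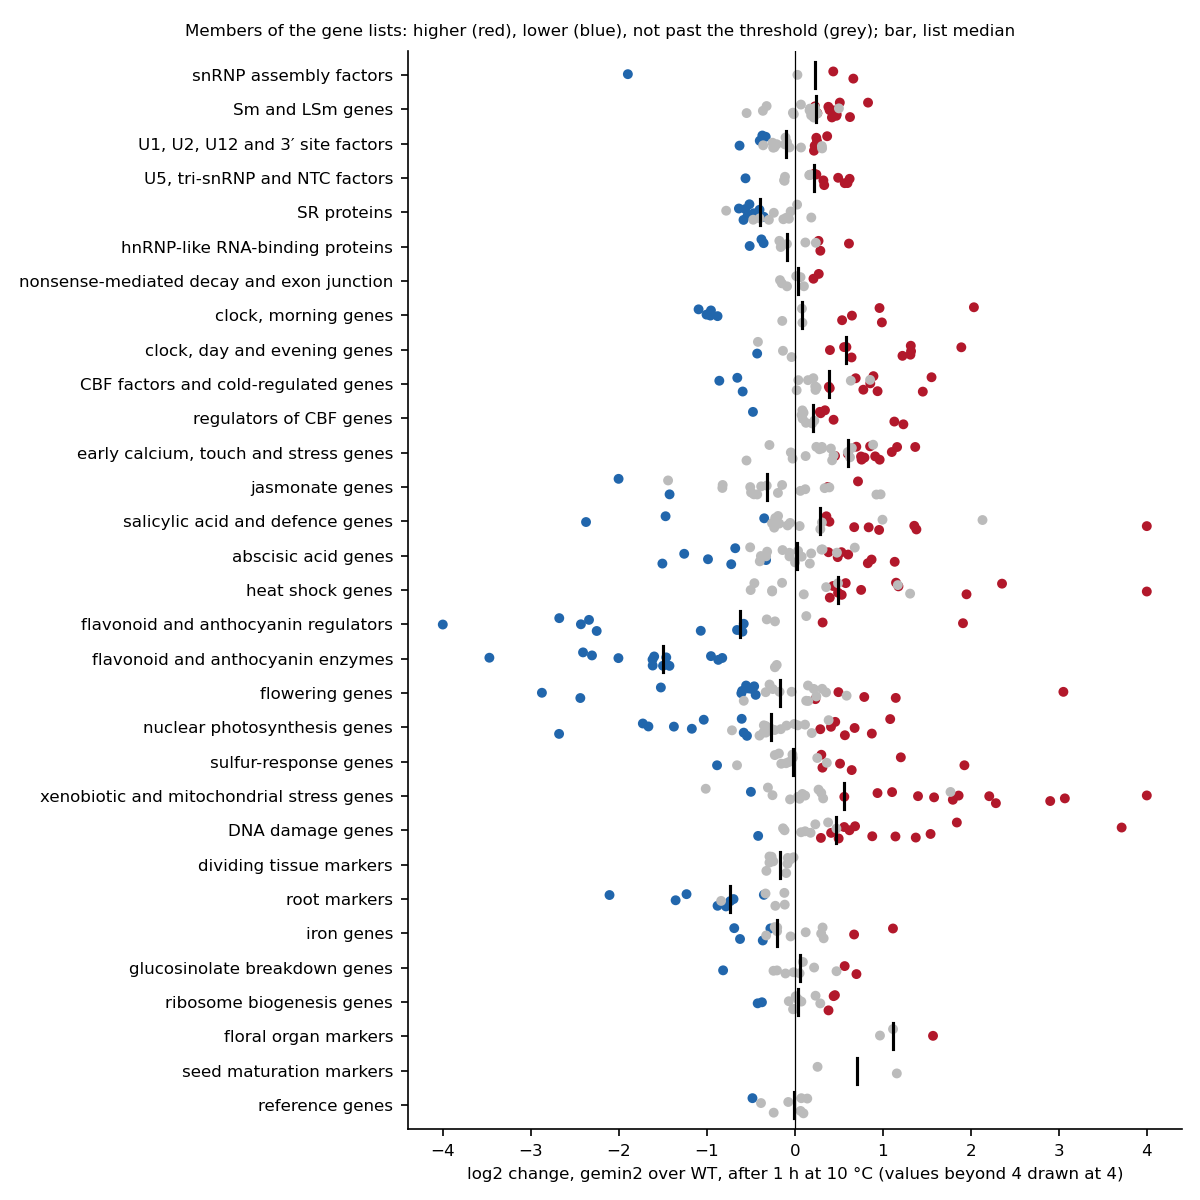
Log2 change (gemin2 over WT, after 1 h at 10 °C) of each tested member of the gene lists, higher in red, lower in blue and not past the threshold in grey, with the list's median as a bar. Values beyond 4 are drawn at 4. The flavonoid enzymes have the lowest median (-1.50).

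Among genes of at least 5 CPM whose libraries did not overlap, the largest rise was that of AT4G04223, annotated as an RNA without a protein, with 19.3, 24.0 and 21.7 CPM in the gemin2 libraries, against 0.791, 1.19 and 1.47 CPM in the WT libraries (log2 change 4.18 ± 0.18, adjusted p = 3.39e-12). A lipid-transfer protein, AT4G12490, had 17.0, 22.8 and 17.2 CPM in the gemin2 libraries, against 2.23, 2.97 and 2.72 CPM in the WT libraries (log2 change 2.83 ± 0.23, adjusted p = 3.39e-07). ASN1 (AT3G47340), an asparagine synthetase of dark and sugar starvation, had 245, 53.4 and 97.5 CPM in the gemin2 libraries, against 21.5, 23.4 and 22.7 CPM in the WT libraries (log2 change 2.55 ± 0.47, adjusted p = 0.0013), and gemin2 library A was far above the others (log2 change 1.74 without it). AT3G15450, annotated as an aluminium-induced protein, had 109, 70.7 and 96.0 CPM in the gemin2 libraries, against 19.7, 18.4 and 18.3 CPM in the WT libraries (log2 change 2.29 ± 0.20, adjusted p = 6.51e-07). The largest fall was that of AT1G65486, an uncharacterized protein, with 1.85, 0.881 and 1.16 CPM in the gemin2 libraries, against 14.6, 19.2 and 10.8 CPM in the WT libraries (log2 change -3.49 ± 0.41, adjusted p = 1.56e-05). A copper amine oxidase, AT1G31690, had 6.02, 7.64 and 4.68 CPM in the gemin2 libraries, against 47.8, 50.5 and 47.0 CPM in the WT libraries (log2 change -2.98 ± 0.18, adjusted p = 6.62e-09), and MRD1 (AT1G53480) had 3.69, 2.75 and 3.64 CPM in the gemin2 libraries, against 21.0, 21.2 and 19.6 CPM in the WT libraries (log2 change -2.61 ± 0.15, adjusted p = 2.03e-10). GLP8 (AT3G05930), a germin-like protein, had 3.23, 2.08 and 1.47 CPM in the gemin2 libraries, against 14.5, 15.5 and 12.2 CPM in the WT libraries (log2 change -2.61 ± 0.30, adjusted p = 9.16e-06). The RNA AT3G05932 overlaps GLP8 on the other strand and had nearly the same values, so their reads cannot be told apart. At 22 °C the differences had the same sign, from 1.29 to 3.83 for the rises named here (ASN1 did not pass there) and from -2.48 to -2.10 for the falls.

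Whether the genotype difference after 1 h was that already there at 22 °C was tested as a difference of differences. At 22 °C, where the WT libraries were shallower, 2308 genes (10.5%) were higher and 2228 (10.2%) lower in gemin2. The log2 change after 1 h minus that at 22 °C was above 0 for 9 genes (0.0411%) and below 0 for 12 (0.0547%) among those that passed, and above 0 for 6 introns (0.0641%) and below 0 for none. At an unadjusted p under 0.05, 705 introns were above 0 and 279 below. No bin passed in edgeR (234 above 0 and 126 below at an unadjusted p under 0.05, and 14 and 1 called by DESeq2). Against the genotype difference after 24 h at 10 °C, 1280 genes (5.84%) were above 0 and 1538 (7.02%) below, and 3 introns (0.032%) were above and 5 (0.0534%) below. The counts against 22 °C depend on the fit: DESeq2 gave 102 and 86 genes and 31 and 0 introns. Leaving out 1 of the 12 libraries gave 2 to 31 genes upward and 5 to 88 downward, with the highest counts of both without gemin2 library A after 1 h, and 1 to 15 introns upward and 0 to 6 downward. Without gemin2 library C at 22 °C, rich in ribosomal RNA counts, 4 genes were above 0 and 6 below, and 2 introns above and 0 below.

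CO had 5.29, 7.13 and 6.20 CPM in gemin2 and 36.7, 34.4 and 29.6 CPM in WT after 1 h, and at 22 °C it had 1.06, 0.957 and 1.52 CPM in gemin2 and 2.36, 2.13 and 1.99 CPM in WT. Both genotypes had more CO after 1 h than at 22 °C, and gemin2 lay further below WT after 1 h (difference -1.55 ± 0.26, adjusted p = 0.0124). DFL2 (AT4G03400), a GH3 family protein, had 91.9, 112 and 89.7 CPM in gemin2 and 168, 144 and 140.4 CPM in WT after 1 h, and 38.6, 41.4 and 36.9 CPM in gemin2 and 18.8, 21.3 and 17.9 CPM in WT at 22 °C (difference -1.64 ± 0.14, adjusted p = 1.8e-06). It was thus lower in gemin2 after 1 h and higher at 22 °C. OFP16 (AT2G32100), an ovate family protein, had 10.2, 12.3 and 12.5 CPM in gemin2 and 22.6, 23.5 and 21.3 CPM in WT after 1 h, and 16.4, 16.9 and 19.7 CPM in gemin2 and 10.7, 10.6 and 13.3 CPM in WT at 22 °C (difference -1.55 ± 0.20, adjusted p = 0.00091). LNK1 at 22 °C had 42.9, 43.7 and 44.6 CPM in gemin2 and 34.1, 52.0 and 38.2 CPM in WT, where its groups overlapped (difference 0.91 ± 0.16, adjusted p = 0.0206). Its mean in WT was 41.4 CPM at 22 °C and 24.2 CPM after 1 h, while in gemin2 it was 43.7 and 48.1 CPM. LNK2 at 22 °C had 143, 139 and 146 CPM in gemin2 and 148, 180.1 and 165 CPM in WT (difference 0.86 ± 0.14, adjusted p = 0.0127). The intron of GRP7 at 22 °C had 6.24%, 6.93% and 7.08% in gemin2 and 5.36%, 7.09% and 5.97% in WT (difference 1.01 ± 0.17, adjusted p = 0.00882). Intron I001 of CCL (AT3G26740), a gene whose RNA decays quickly under clock control, had 1.75%, 1.33% and 1.71% in gemin2 and 0.572%, 0.631% and 0.453% in WT after 1 h, and 1.71%, 1.60% and 1.86% in gemin2 and 2.11%, 2.29% and 1.48% in WT at 22 °C (difference 1.71 ± 0.34, adjusted p = 0.0367). In both introns the level was higher in gemin2 than in WT after 1 h, without overlap.

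**Figure D5:**
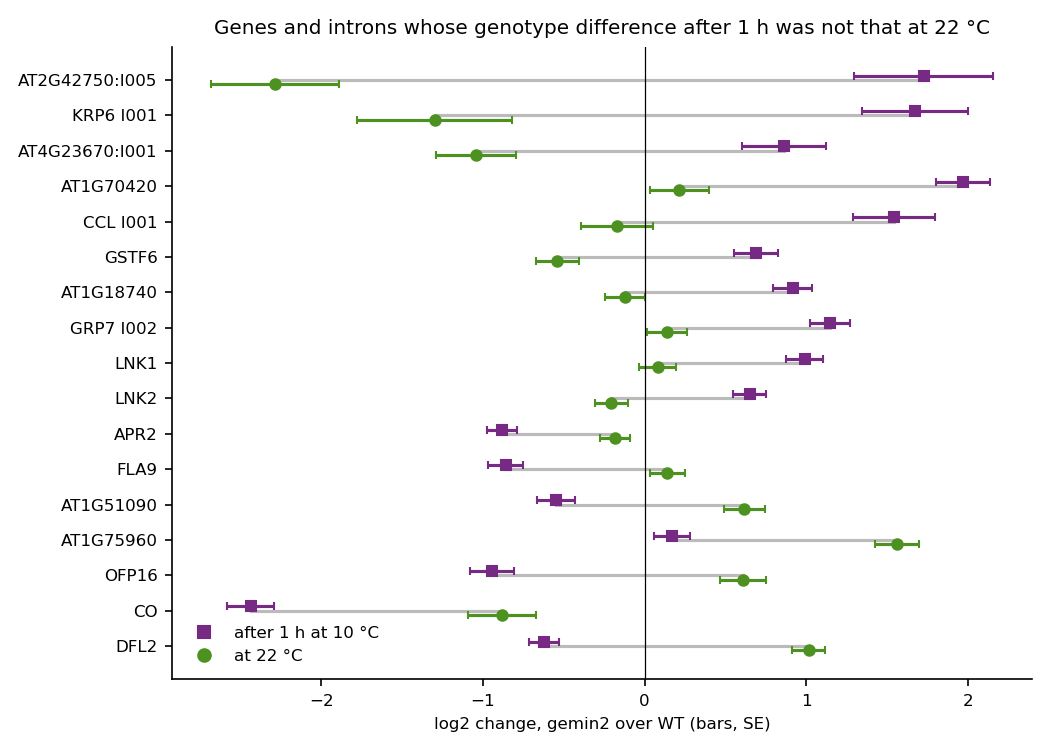
Log2 change (gemin2 over WT, with SE) after 1 h at 10 °C (squares) and at 22 °C (circles) for 12 genes and 5 introns, those with the smallest adjusted p of the difference in each direction and 2 more list members. DFL2 and OFP16 lie below 0 after 1 h and above 0 at 22 °C, and LNK1, LNK2 and the GRP7 intron lie at 0.99, 0.65 and 1.14 after 1 h and at 0.08, -0.21 and 0.14 at 22 °C.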

How the data were processed

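Poly(A) RNA of whole plants was prepared with a TruSeq kit, per the labels' protocols, which state no strand. TopHat2 2.0.9, R 3.0.2, edgeR 3.4.2 and the TAIR10 genome are named in the submitters' processing notes. The authors deposited whole-number counts per gene, intron and alternative splicing bin, which were used as deposited. Tables of called features that the authors deposited with log2 fold changes and p-values served only the comparison at the end. Reads of overlapping genes cannot be told apart in such counts, and intervals cover counting error only.

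Counts were tested with edgeR 4.0.16 (limma 3.58.1, R 4.3.3) by the quasi-likelihood test with TMM factors, filterByExpr and robust dispersions, over all 18 libraries in 6 groups. Introns and bins had the log count of their gene as offset. They needed a mean of at least 10 counts, and their gene a mean of at least 50 and at least 10 in each library. The threshold was an adjusted p of 0.05. The steps were run on simulated counts with the same spread for all features and libraries. That setting holds no library that stands apart, so it does not cover the dependence on single libraries given above. DESeq2 1.42.0, RLE factors, other filters, a block by library letter and fits without 1 library were the alternatives.

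The condition and the gene lists were chosen with earlier results of these data known. Named were the 8 largest changes in each direction without overlap (at least 5 CPM, or a mean of 20 counts), up to 4 called members per list, and the 5 smallest adjusted p per direction for the difference from 22 °C, with some left out for length. Other list members named in the text, and ORG1, TAP38, GC5 and AT3G05932, were chosen after their values were seen. Too low to be tested were 3 members of the CBF list, 3 floral and 4 seed markers, and 1 gene each of the jasmonate, abscisic acid, heat shock, flowering and xenobiotic lists.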

Additional observations from a re-analysis of the deposited data

Results flagged for a closer look

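The results below stood out because the genotype difference after 1 h was not that at 22 °C, by the test of the difference itself (edgeR's quasi-likelihood test, adjusted p under 0.05). Each value is the log2 change (gemin2 over WT) after 1 h minus that at 22 °C. Groups of 3 libraries are too small for a test of single outlying libraries.

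Genes with a positive difference were AT1G70420 (DUF1645 protein) with 1.76, GSTF6 (AT1G02930), a glutathione transferase, with 1.23, AT1G18740 (DUF793 protein) with 1.04, CYP71B4 (AT3G26280), a cytochrome P450, with 0.936 and AT5G45100, annotated as an S-ribonuclease-binding protein, with 0.922. The clock coactivators LNK1 (AT5G64170) and LNK2 (AT3G54500) had 0.909 and 0.856, the TIR-NBS-LRR gene AT5G41740 had 0.774, and PI4K gamma 7 (AT2G03890), a lipid kinase family gene, had 0.59.

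Genes with a negative difference were DFL2 (AT4G03400) with -1.64, CO (AT5G15840) with -1.55, OFP16 (AT2G32100) with -1.55, AT1G75960 (AMP-dependent synthetase) with -1.39, AT5G54710 (ankyrin repeat protein) with -1.31 and AT1G51090 (heavy metal transport) with -1.17. The fasciclin-like FLA9 (AT1G03870) had -1.0, PORB (AT4G27440), an enzyme of chlorophyll synthesis, had -0.948, the kinase CIPK15 (AT5G01810) had -0.922, and the expansin EXPA1 (AT1G69530) had -0.899. The hydroxyproline-rich protein AT4G25620 had -0.734 and APR2 (AT1G62180) had -0.701.

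Among introns, relative to their gene, the difference was 4.01 for AT2G42750:I005 (DNAJ protein), 3.30 for AT4G38470:I014 (ACT-like tyrosine kinase) and 2.97 for AT3G19150:I001 (KRP6, an inhibitor of cyclin-dependent kinases). It was 1.91 for AT4G23670:I001 (polyketide cyclase), where the groups overlapped after 1 h, 1.71 for AT3G26740:I001 (CCL) and 1.01 for AT2G21660:I002 (GRP7).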

How the results depend on the processing

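The counts of genes after 1 h held within 1.5 times under RLE factors, no filter, DESeq2, a fit of the compared groups only and the block. With a minimum absolute log2 change of 1 they were 657 higher and 774 lower, and without 1 library 2659 to 3744 and 2514 to 4274. For the difference from 22 °C, genes numbered 3 above and 7 below 0 with that minimum, 16 and 22 with no filter, 102 and 86 in DESeq2, and 25 and 27 with the compared groups only. Without 1 library they were 2 to 31 and 5 to 88. Introns were 1706 higher with a mean of at least 3 counts, 97 lower with the fold minimum and 442 lower with library size as offset in place of the gene. Without 1 library they were 791 to 1176 higher and 71 to 240 lower. Introns that differed from 22 °C were 11 above 0 with a mean of at least 3 counts, 31 in DESeq2 and 12 with the compared groups only, and 1 was below 0 with library size as offset. Without 1 library they were 1 to 15 and 0 to 6. Bins were 140 higher and 23 lower with the fold minimum, 244 lower with library size as offset, and 100 to 380 and 21 to 191 without 1 library. The intron counts per 100 gene counts differed by 0.414 to 0.532 without 1 library, and by 0.361 over introns with a mean of at least 10 counts. The bin E007 of LNK1 (AT5G64170:E007, log2 change -0.73) reversed to 0.258 with library size as offset. That offset brought the RVE2 intron (AT5G37260:I002) to 0.971, still past the threshold. In the other planned settings the named genes, introns and bins stayed past the threshold in 713, 260 and 126 cases and lost their call in 67, 10 and 11. Without 1 library they stayed in 746, 246 and 112 and lost it in 34, 24 and 26. In gene lists with no call in a direction DESeq2 made none there either, and 2 heat shock genes were lower at an unadjusted p under 0.05. Except where a value above shows it, the cause was not tested. RLE factors were not run for introns and bins, where the gene count as offset leaves them no role.

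The letters were not shown to pair the libraries: deviations of same-lettered gemin2 and WT libraries correlated at 0.136 (A), -0.194 (B) and 0.219 (C). With the letter as replicate block, 4109 genes were higher and 4598 lower, 80 and 167 differed from 22 °C, 1264 introns were higher and 213 lower, 14 and 1 differed from 22 °C, and 363 bins were higher and 180 lower.

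Each group has 3 libraries, and the mutant is a single allele. Introns under the count minimum were left untested, which were most of the 120717 in the table.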

Other observations

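In the authors' deposited table of genes for this comparison, 3548 genes are listed, 1478 with positive and 2070 with negative values. Of these, 3543 were tested here, and the values of all 3543 have the sign of gemin2 over WT, although the column heading in the authors' deposited table reads the other way. Here 3219 of them passed the test, which is 90.73% of the genes in the authors' deposited table and 43.15% of the 7460 called here.

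The authors' deposited table of introns lists 3359, 2140 positive and 1219 negative. Of these, 1364 were tested here, 1361 have the same sign as in the authors' deposited table, and 784 passed, which is 23.34% of those listed and 60.63% of those called here.

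In the authors' deposited table of alternative splicing bins, the bin name and the locus belong to different genes in all 522 rows. Matched by bin name, 217 of 411 tested bins have the same sign as in the authors' deposited table. Matched by locus and position, 378 of 381 do, and 180 passed here, which is 34.48% of the rows of the authors' deposited table and 55.9% of the bins called here.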
